A study of Homo sapiens with 36 samples.

Results

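The 10 genes described here encode the soluble cargo of neuroendocrine dense-core granules and the enzymes that process it. They are the granins CHGA, CHGB, SCG2, SCG3 and VGF, the convertases PCSK1 and PCSK2 with their binding partners PCSK1N and SCG5, and the carboxypeptidase CPE. They are a named list of granule genes, and no measured value enters the rule. The list was chosen, however, with earlier results of these data known. Of these 10 genes, 9 stand in the table of normalized counts of 19014 genes, and SCG5 was read from the FPKM table only. Of the 9, 8 were among the 15819 genes tested, for which 9 of 36 libraries had to reach 10 normalized counts. PCSK1N was under that limit, and PCSK2 passed it through the control libraries alone (18 of 18 control libraries and 0 of 18 knockout libraries at 10 or more). The other 7 reached 10 normalized counts in 16 to 18 of the 18 knockout libraries.

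The cells were of the established line H446, from a human small-cell lung cancer, labelled as the SCLC-N subtype, in which the bHLH transcription factor NEUROD1 is expressed. The groups were 3 NEUROD1 knockout clones (12, 15 and 2-1, made with 1 and the same guide RNA) and 3 control clones that received a non-targeting guide RNA (3, 10 and 13). Each clone was grown for 24 h with 1 µM JQ1, an inhibitor of the BET bromodomain proteins that read acetylated histones, or with the solvent DMSO, in 3 libraries per clone and treatment. The clone is the unit of replication for genotype, so levels are means ± SD over 3 clones.

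In neuroendocrine cells, granins condense in the trans-Golgi network and help to form granules, in which prohormones are stored with their enzymes. PCSK1 and PCSK2 cut prohormones after paired basic residues, and CPE then removes the basic residues from the new C termini. PCSK1N (proSAAS) yields a peptide that inhibits PCSK1, and SCG5 (7B2) is needed for PCSK2 to become active. Chromogranin A and the other granins are used as markers of neuroendocrine tumours. On GRCh38 (GENCODE 29) the genes lie on chromosomes 14 (CHGA), 20 (CHGB and PCSK2), 2 (SCG2), 15 (SCG3 and SCG5), 7 (VGF), 5 (PCSK1), X (PCSK1N) and 4 (CPE).

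Upstream sequence of 4 members is shown because 3 of them share a cyclic AMP response element (CRE, the TGACGTCA site of CREB-family factors). SCG3 is shown for CAGCTG, a type of E-box, the CANNTG class of site bound by bHLH factors. E-boxes of other types also lie in the sequences shown, such as cacctg in CHGA and cacgtg in VGF, and are left in lower case. The sequences are the 250 bases before the RefSeq start on GRCh38.p14, read 5′ to 3′ on the gene's strand, with the CRE in capitals for CHGA (chromosome 14, plus strand), VGF (chromosome 7, minus strand) and the first of the RefSeq starts of PCSK1 (chromosome 5, minus strand), and with the E-box CAGCTG in capitals for SCG3 (chromosome 15, plus strand). The windows are chr14:92922900-92923149, chr7:101165570-101165819, chr5:96433249-96433498 and chr15:51681253-51681502.
CHGA: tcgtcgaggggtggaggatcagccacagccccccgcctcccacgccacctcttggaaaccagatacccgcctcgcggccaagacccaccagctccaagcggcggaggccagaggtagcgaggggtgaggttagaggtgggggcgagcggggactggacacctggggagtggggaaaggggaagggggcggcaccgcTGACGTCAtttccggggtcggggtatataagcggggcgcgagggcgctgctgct
VGF: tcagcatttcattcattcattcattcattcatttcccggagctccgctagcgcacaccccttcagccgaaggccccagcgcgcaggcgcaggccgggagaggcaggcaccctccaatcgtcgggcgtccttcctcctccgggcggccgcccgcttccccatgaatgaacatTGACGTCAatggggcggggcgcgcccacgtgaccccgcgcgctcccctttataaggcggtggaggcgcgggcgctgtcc
PCSK1: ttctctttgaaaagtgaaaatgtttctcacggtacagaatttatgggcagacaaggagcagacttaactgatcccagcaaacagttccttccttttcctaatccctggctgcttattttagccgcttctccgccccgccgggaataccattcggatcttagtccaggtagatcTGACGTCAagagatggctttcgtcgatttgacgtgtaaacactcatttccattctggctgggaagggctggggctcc
SCG3: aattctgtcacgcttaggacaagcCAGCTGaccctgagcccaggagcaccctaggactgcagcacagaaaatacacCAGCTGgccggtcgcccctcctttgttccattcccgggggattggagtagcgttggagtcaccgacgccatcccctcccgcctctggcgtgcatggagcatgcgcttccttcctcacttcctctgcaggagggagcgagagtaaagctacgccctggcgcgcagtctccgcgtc

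The RefSeq table held 10 starts of 8 members; CHGB and SCG2 were not matched. Both strands were searched over these 250 bases. TGACGTCA stood in 3 of the 10 member promoters and in 1.65% of 35114 promoters of all genes, at -54 to -47 in CHGA, -79 to -72 in VGF and -77 to -70 in PCSK1, counted from the start. The shorter motif TGACG, which lies within TGACGTCA, stood in 7 of 10 and in 21.2% of all promoters. CAGCTG stood in 2 of 10 (SCG3, with 2 copies, and the other start of PCSK1) and in 14% of all promoters, CAGGTG in 3 of 10 (CHGA, CPE and SCG5) and 17.5%, and CAGATG in 0 of 10 and 12.2%. Other E-box types, CACGTG among them, were not counted. A match describes letters in this window and no binding was measured.

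Depth was 13282337 to 18890506 recovered reads in 35 of the libraries. NEUROD1 averaged 1.87 ± 2.93 normalized counts in knockout clones against 5998 ± 580.5 in control clones with DMSO. With JQ1 it was 2.42 ± 3.59 in knockout clones (2.34 ± 3.65 without the library described next), against 7092 ± 1266 in control clones. Of 5 neuroendocrine markers tested, 3 were lower in knockout than in control clones with DMSO. INSM1, a zinc-finger factor of endocrine differentiation, stood at 42.9 ± 5.19 and 2832 ± 555.4, SYP, a synaptic vesicle protein, at 99.2 ± 35.8 and 2313 ± 174.7, and ENO2, the neuronal enolase, at 3202 ± 348.6 and 5645 ± 1111. NCAM1 (adjusted p = 0.0550) and UCHL1 (adjusted p = 0.573) did not pass. No pair of replicates looked like 1 library deposited again (chi-square per gene 2.19 or more), so each was counted.

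Knockout clone 12 with JQ1, replicate 1, stood apart. It held 31825795 reads. All 16 lung and blood markers with FPKM values, collagens aside, were found in it, at a summed 3143 FPKM. The remaining 35 libraries held 3 to 11 of these markers, at 1.73 to 10.3 FPKM. The surfactant gene SFTPA2 had 385.4 FPKM in the library that stood apart and at most 0.890 elsewhere. CD74, an antigen-presentation chaperone, had 553.2 FPKM in it and at most 1.53 elsewhere. Among the remaining 35, replicate 1 of control clone 13 with JQ1 was highest in markers (11), summed FPKM (10.3) and SFTPA2 (0.890), and it was kept. Relative to the mean of the other libraries of that clone and treatment, members stood at a ratio of 0.368 (CHGB), 0.372 (SCG2), 0.402 (CPE), 0.494 (PCSK1), 0.521 (CHGA), 0.559 (SCG3) and 0.965 (VGF). Counts of members called with JQ1 are given with and without it where it changes them, as are some of the values. Other values of knockout clones with JQ1 include it. Of the collagens on the same list, COL1A2 stood at 20859 ± 7506 normalized counts in knockout clones and 3546 ± 1753 in control clones with DMSO (adjusted p = 0.0140), and the list with its collagens summed to 254.7 to 427.4 FPKM in knockout libraries and 35.6 to 110.1 in control libraries. The part of this in the results was not tested.

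**Figure D1:**
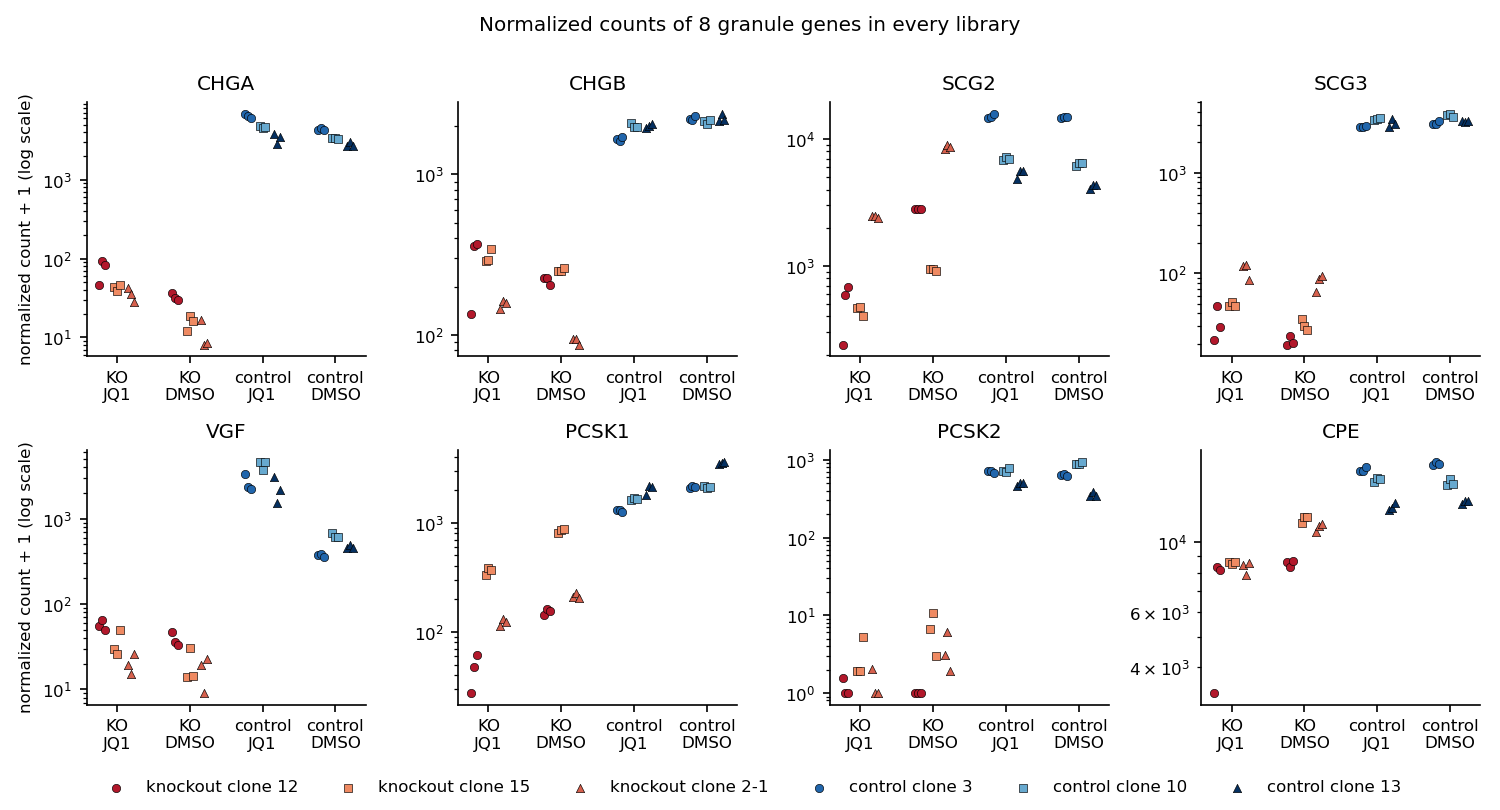
Normalized counts plus 1 (log axis) of 8 granule genes in all 36 libraries; each point is 1 library, colour and shape mark the clone, and knockout (KO) stands left of control and JQ1 left of DMSO. With DMSO, knockout libraries overlap control libraries for SCG2 and lie below them for the other genes shown. The share of all genes without such overlap was not counted. The low point of clone 12 with JQ1 in CPE is the library that held lung transcripts.

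Knockout and control clones were compared with DMSO to ask which granule genes differ when NEUROD1 is absent. CHGA, SCG3, VGF, CHGB and PCSK1 fell in knockout clones, PCSK2 was nearly undetected there, and CPE and SCG2 did not pass the test. Of 8 members tested, 6 were lower and 0 higher, where 6.23% of all genes tested were lower and 12.5% differed in either direction (limma, adjusted p under 0.05). PCSK2 had to be high in control clones to be tested, so its call is not support, and the count without it was 5 of 7. The members' median log2 fold change was -4.05, and that of all genes tested 0.01. As the members were chosen with earlier results of these data known, their counts beside these shares are a description. These are bulk libraries, so fewer cells with a transcript and less transcript per cell cannot be told apart.

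Chromogranin A, CHGA, the most widely used granin marker, was the granin with the largest fall. It had 7.05, 15.4 and 35.9 normalized counts (lowest, median and highest) in the 9 knockout libraries, against 2678, 3377 and 4471 in the 9 control libraries. The libraries did not overlap, and the knockout mean was 0.538% of the control mean (18.8 ± 11.5 and 3492 ± 771.8; log2 fold change -7.63, SE 0.43, adjusted p = 0.000183). Among knockout clones, clone 12 was highest at 31.8 and clone 2-1 lowest at 10.0.

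SCG3 (secretogranin III), which binds CHGA and cholesterol-rich granule membrane, followed the same order of size. Its 9 knockout libraries had 18.5, 29.2 and 92.3 normalized counts (lowest, median and highest), against 3024, 3231 and 3842 in the 9 control libraries. The groups did not overlap, and the knockout mean was 1.31% of the control mean (43.7 ± 32.6 and 3337 ± 314.7; log2 fold change -6.47, SE 0.47, adjusted p = 0.000491). Here clone 2-1 was the highest knockout clone (80.9) and clone 12 the lowest (20.3), the reverse of CHGA.

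VGF, a granin-like precursor of neuroactive peptides, had 8.06, 21.7 and 46.1 normalized counts in knockout libraries, against 350.0, 451.9 and 671.7 in control libraries (lowest, median and highest of 9). The groups did not overlap, and the knockout mean was 4.94% of the control mean (24.1 ± 12.0 and 488.3 ± 130.1; log2 fold change -4.42, SE 0.40, adjusted p = 0.00121).

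Chromogranin B, CHGB, retained more of its level. Knockout libraries had 85.7, 225.0 and 261.9 normalized counts, against 2073, 2181 and 2386 in control libraries. All knockout libraries were lower than all control libraries, at a mean of 8.51% (187.3 ± 85.3 and 2203 ± 56.1; log2 fold change -3.68, SE 0.37, adjusted p = 0.00181). The control clones lay within 2138 to 2240 of each other, and of the knockout clones, clone 2-1 (91.0) stood below clones 12 (217.8) and 15 (253.2).

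SCG2 (secretogranin II), the precursor of secretoneurin, was the granin that the knockout did not separate. Knockout libraries had 904.6, 2834 and 8947 normalized counts, against 4011, 6469 and 14999 in control libraries. The groups overlapped, since knockout clone 2-1 (8677) was above control clones 10 (6391) and 13 (4216), while knockout clones 12 (2832) and 15 (932.5) were below all control clones. The log2 fold change was -1.38 (SE 0.83, adjusted p = 0.339), and the spread of SCG2 among knockout clones, 9.31-fold from the lowest to the highest, exceeded the difference between genotypes.

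Of the convertases, PCSK2 was nearly undetected in knockout clones. Its 9 knockout libraries held 26 reads in all, 18 in clone 15, 8 in clone 2-1 and 0 in clone 12, against 5638 reads in the 9 control libraries. As normalized counts this was 0, 2.03 and 9.73 (lowest, median and highest) against 336.8, 631.6 and 938.8, with no overlap and a knockout mean of 0.448% of the control mean (log2 fold change -7.76, SE 0.70). As PCSK2 was tested only through its control libraries, its level is a description. On this log2(count + 1) scale the change of so low a gene is understated.

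PCSK1 fell less. Knockout libraries had 141.5, 205.5 and 869.0 normalized counts, against 2060, 2151 and 3596 in control libraries, with no overlap. The knockout mean was 15.5% of the control mean (400.8 ± 380.2 and 2591 ± 817.5; log2 fold change -3.06, SE 0.62, adjusted p = 0.0226). Clone 15 kept 838.5 normalized counts, and clones 2-1 and 12 had 210.9 and 153.0. The call did not hold without knockout clone 2-1 (adjusted p = 0.0613) or without control clone 3, 10 or 13 (0.0627, 0.0711 and 0.0803), nor in edgeR (0.0535).

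CPE, the carboxypeptidase, was the most abundant member and changed least. Knockout libraries had 8302, 11271 and 12059 normalized counts, against 13220, 15258 and 18001 in control libraries. Although no libraries overlapped and the knockout mean was 67.6% of the control mean (10527 ± 1757 and 15563 ± 2202), the difference did not pass over all genes (log2 fold change -0.57, SE 0.18, adjusted p = 0.0910). DESeq2 gave adjusted p = 0.0403.

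The partners of the convertases were scarcely expressed in either genotype. PCSK1N had 0 to 5.84 normalized counts in knockout libraries and 0 to 15.9 in control libraries with DMSO, and control clone 10 had 0 reads in all 6 of its libraries. SCG5 had 0.110 to 1.92 FPKM in knockout libraries and 0.140 to 0.450 in control libraries. The ratio of PCSK2 to SCG5, as log2 of FPKM + 0.1, was -1.96 ± 0.28 in knockout clones and 5.49 ± 1.11 in control clones (difference -7.45, and -4.35 with an offset of 1). That of PCSK1 to PCSK1N was 4.86 ± 0.58 and 7.0 ± 1.46 (difference -2.14, and -2.52 with an offset of 1). With SCG5 and PCSK1N near 0 in both genotypes, the offset sets the size of these ratios, and they hold little beyond the levels of PCSK2 and PCSK1.

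**Figure D2:**
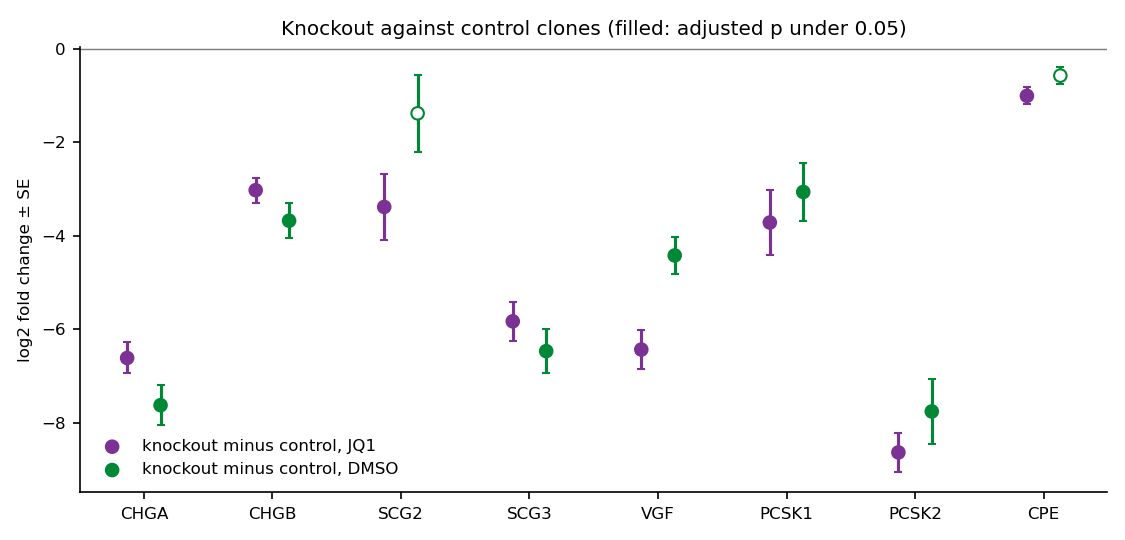
Log2 fold change of knockout over control clones for 8 members with JQ1 (left point) and with DMSO (right point); bars are SE from limma on 3 against 3 clones, and filled points have an adjusted p under 0.05. CHGA, PCSK2 and SCG3 lie below -5 with both treatments, SCG2 and CPE are open with DMSO, and every point with JQ1 is filled.

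The same comparison with JQ1 gave all 8 members lower in knockout clones, where 5.59% of all genes tested were lower and 12% differed in either direction. Without PCSK2, tested only through its control libraries, the count was 7 of 7. The libraries of the groups did not overlap for any of the 8 members. How many of all genes tested were without such overlap was not counted, so this is a description. SCG2 now passed, at 237.9, 593.9 and 2494 normalized counts in knockout libraries (lowest, median and highest of 9), against 4894, 6994 and 15873 in control libraries (log2 fold change -3.38, SE 0.70, adjusted p = 0.0240). VGF had 14.1, 29.05 and 63.2 in knockout libraries, against 1529, 3084 and 4633 in control libraries (log2 fold change -6.44, SE 0.42, adjusted p = 0.000221).

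CPE also passed with JQ1, at 7830 ± 1096 in knockout clones and 15260 ± 2100 in control clones (log2 fold change -1.002, SE 0.18, adjusted p = 0.0157). Without the library that stood apart, the knockout mean was 8375 ± 212.2 and the fold change -0.86 (adjusted p = 0.0114). The other log2 fold changes were -8.64 for PCSK2, -6.62 for CHGA, -5.83 for SCG3, -3.72 for PCSK1 and -3.02 for CHGB. Without that library all 8 still passed, where 875 of 15819 genes tested were lower, with SCG2 at -3.22 and VGF at -6.43. The others were then -8.71 for PCSK2, -6.51 for CHGA, -5.75 for SCG3, -3.61 for PCSK1 and -2.86 for CHGB. The SCG2 call was lost without control clone 3, 10 or 13 or knockout clone 12 or 15 (adjusted p = 0.0731, 0.0770, 0.0503, 0.0600 and 0.0748), that of PCSK1 without control clone 10 or 13 (0.0656 and 0.0610) and that of CPE without control clone 3 or 10 (0.0560 and 0.0741). In edgeR, SCG2 and PCSK1 did not pass (0.0762 and 0.0544).

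JQ1 was then compared with DMSO within the control clones, to ask how the granule genes respond where NEUROD1 is present. VGF rose, CHGA rose slightly and PCSK1 fell, and the other 5 tested members did not pass. That is 2 members higher and 1 lower of 8, where 23% of all genes tested were higher, 24.9% lower and 47.9% differed in either direction. A count of 3 of 8 is near that share.

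VGF had 1529, 3084 and 4633 normalized counts with JQ1, against 350.0, 451.9 and 671.7 with DMSO (lowest, median and highest of 9 control libraries). No libraries overlapped, and the mean with JQ1 was 6.29 times that with DMSO (3071 ± 1091 and 488.3 ± 130.1; log2 fold change 2.60, SE 0.16, adjusted p = 3.02e-05). The rise was seen in clone 10 (4314 with JQ1 and 629.3 with DMSO), clone 3 (2634 and 372.7) and clone 13 (2266 and 463.0).

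CHGA averaged 4810 ± 1515 with JQ1 and 3492 ± 771.8 with DMSO in control clones (log2 fold change 0.43, SE 0.13, adjusted p = 0.0217), and libraries of different clones overlapped. All 3 control clones moved the same way, but the call was lost without clone 3, 10 or 13 (adjusted p = 0.153, 0.125 and 0.0558), without replicate 3 of every clone (0.0638), and without replicate 1 of knockout clone 2-1 with DMSO (0.0583) or replicate 2 of knockout clone 12 with JQ1 (0.0550), whose spread is shared. PCSK1 averaged 1651 ± 361.6 with JQ1 and 2591 ± 817.5 with DMSO (log2 fold change -0.63, SE 0.17, adjusted p = 0.0177), lower in 3 of 3 clones and not past the threshold without clone 3 or 13 (0.0916 and 0.111). CHGB (-0.22), SCG3 (-0.10), CPE (-0.03), PCSK2 (0.11) and SCG2 (0.17) had log2 fold changes that did not pass. Without the library that stood apart, which enters the shared spread, the adjusted p was 0.00538 for CHGA and 0.00417 for PCSK1.

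**Figure D3:**
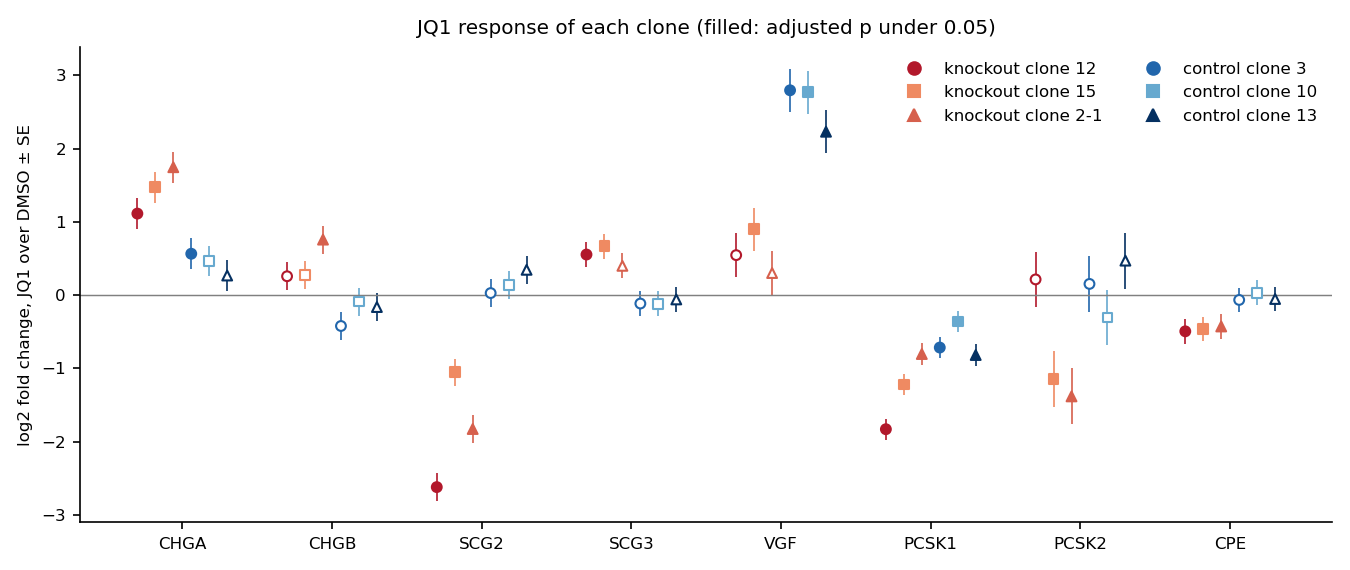
Log2 fold change of JQ1 over DMSO in each knockout clone and each control clone, from 3 against 3 libraries; bars are SE and filled points have an adjusted p under 0.05 (limma). VGF lies above 2 in the control clones and below 1 in the knockout clones, and SCG2 lies below -1 in the knockout clones and near 0 in the control clones.

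In knockout clones JQ1 moved 7 of 8 members, 4 higher and 3 lower, where 23.9% of all genes tested were higher, 25.7% lower and 49.6% differed in either direction. CHGA, SCG3, VGF and CHGB rose at low levels, and SCG2, PCSK1 and CPE fell. Without the library that stood apart all 8 passed, as PCSK2 became lower (log2 fold change -0.77, adjusted p = 0.0746 with it; -0.84, adjusted p = 0.0322 without it), on 9 reads with JQ1, 1 of them in that library, and 26 with DMSO. Of all 15819 genes tested, 8922 passed without that library, 4141 higher and 4781 lower.

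SCG2 showed the largest fall. It had 237.9, 593.9 and 2494 normalized counts with JQ1, against 904.6, 2834 and 8947 with DMSO (lowest, median and highest of 9 knockout libraries). Clone 12 had 506.0 and 2832, clone 15 had 449.6 and 932.5, and clone 2-1 had 2443 and 8677 with JQ1 and DMSO. All 3 clones fell, while their levels overlapped between treatments (log2 fold change -1.83, SE 0.23, adjusted p = 0.000441). Leaving out the library that stood apart gave -1.68 (adjusted p = 8.53e-05). That library held the lowest value of 237.9, and clone 12 with JQ1 had 640.1 without it.

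PCSK1 fell further in the same clones, to 44.6 with JQ1 against 153.0 with DMSO in clone 12, 359.6 against 838.5 in clone 15, and 120.5 against 210.9 in clone 2-1 (log2 fold change -1.29, SE 0.17, adjusted p = 0.000596; -1.18 without the library that stood apart). CPE averaged 7830 ± 1096 with JQ1 and 10527 ± 1757 with DMSO (log2 fold change -0.46, SE 0.06, adjusted p = 0.000324). The CPE change without that library was -0.32 (adjusted p = 0.00827), and within clone 12 it was -0.49 with it and -0.06 without it (adjusted p = 0.0154 and 0.149).

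CHGA averaged 49.6 ± 20.3 with JQ1 and 18.8 ± 11.5 with DMSO in knockout clones, higher in 3 of 3 clones (log2 fold change 1.44, SE 0.13, adjusted p = 8.88e-05). SCG3 averaged 62.3 ± 39.6 and 43.7 ± 32.6 (0.54, SE 0.08, adjusted p = 0.00107), VGF 36.2 ± 18.3 and 24.1 ± 12.0 (0.58, SE 0.16, adjusted p = 0.0150), and CHGB 249.6 ± 82.9 and 187.3 ± 85.3 (0.43, SE 0.11, adjusted p = 0.0143). These 4 changes were, without the library that stood apart, 1.55, 0.63, 0.59 and 0.59. Knockout clones with JQ1 then averaged 54.2 ± 28.2 for CHGA and 275.1 ± 108.0 for CHGB. Even with JQ1, CHGA in knockout clones was 1.03% of the control mean with JQ1. The VGF call was lost without knockout clone 15 (adjusted p = 0.0846) or replicate 2 of clone 2-1 with DMSO (0.0881), and the CHGB call without clone 2-1 (0.0578) or without replicate 2 or 3 of clone 12 with JQ1 (0.0705 and 0.0801). In edgeR, VGF and CHGB did not pass (0.0545 and 0.0528).

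Tested within single clones, JQ1 moved 5 members in knockout clone 12, 7 in clone 15 and 6 in clone 2-1, where 52%, 48.6% and 50% of all genes passed, and 3 members in control clone 3, 2 in clone 10 and 2 in clone 13, where 46.8%, 45.1% and 46.1% passed. These p-values measure the spread between libraries of 1 clone. Without the library that stood apart, whose spread is shared by all clones in this model, the counts were 5, 8 and 7 in the knockout clones and 4, 4 and 4 in the control clones. The shares above are with that library kept. In clone 12, 9500 of 15819 genes passed without it, and the shares of the other clones without it are not given. SCG2, PCSK1, CHGA and CPE passed in each knockout clone (CPE in clone 12 not without that library), and VGF in each control clone. PCSK1 passed in each control clone too, but in clone 10 (adjusted p = 0.0459) it was called in 18 of 46 alternative settings.

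The difference between the responses, knockout minus control clones, passed for 5 of 8 members, where 3.1% of all genes passed, 1.55% in each direction. It was -2.02 for VGF (SE 0.22, adjusted p = 0.0150) and -2.01 for SCG2 (SE 0.33, adjusted p = 0.0313), and positive for CHGA (1.01, SE 0.18, adjusted p = 0.0348) and SCG3 (0.64, SE 0.12, adjusted p = 0.0381). For CPE it was -0.43 (SE 0.08, adjusted p = 0.0361), and -0.29 without the library that stood apart (adjusted p = 0.140). CHGB (0.65, adjusted p = 0.0662), PCSK1 (-0.65, adjusted p = 0.168) and PCSK2 (-0.88, adjusted p = 0.286) did not pass, and without that library CHGB did (0.81, adjusted p = 0.0260). The other calls held without it, at -2.01 for VGF, -1.85 for SCG2, 1.11 for CHGA and 0.72 for SCG3. VGF thus rose less in knockout clones, SCG2 fell there while its change in control clones was 0.17 and did not pass, and CHGA rose more on the log2 scale from a far lower level. The responses use the libraries of the within-genotype comparisons, so this is not separate evidence.

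These calls on the difference changed with the tool and with the clones used. In edgeR 0 members and 12 of 15819 genes passed. At an unadjusted p under 0.05 in edgeR there were 8 of 8 members and 2822 genes. DESeq2 called 6 members and 1046 genes. With control clone 3, 10 or 13 left out, limma called 0 members and 0 genes. At an unadjusted p under 0.05 there were then 6, 6 and 7 members and 2502, 2385 and 2627 of 15819 genes. Without knockout clone 15 limma called 2 members and 57 genes, and without replicate 2 or 3 of clone 12 with JQ1 it called 1 member.

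Clones of 1 genotype also differed among themselves. With DMSO, all 8 members differed between the 3 knockout clones, where 67.9% of all genes did (limma, moderated F over 9 libraries). Between the 3 control clones 4 differed, where 45.6% of all genes did. The spread in this test is shared by all clones and both treatments. Without the library that stood apart, which enters that spread, the counts were 8 between knockout clones and 5 between control clones. The shares of all genes above are with that library kept. From the lowest to the highest knockout clone, SCG2 spanned 3.22 on the log2 scale, PCSK2 2.58, PCSK1 2.45, SCG3 1.93, CHGA 1.65, CHGB 1.47, VGF 1.28 and CPE 0.48. With that library kept, the spans that passed between control clones were 1.82 for SCG2, 1.36 for PCSK2, 0.74 for PCSK1 and 0.63 for CHGA. The CHGA call (limma adjusted p = 0.0455) held in 18 of 45 alternative settings. Clone 12 was lowest for PCSK1, PCSK2, SCG3 and CPE and highest for CHGA and VGF, and clone 2-1 was highest for SCG2 and SCG3 and lowest for CHGA, CHGB and VGF, so no knockout clone was low or high for all members.

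Per length, as FPKM, the 10 genes together with DMSO reached 446.9 ± 122.4 in knockout clones, against 1087 ± 251.3 in control clones. With JQ1 the sum was 261.7 ± 52.0 in knockout clones, against 1126 ± 225.1 in control clones, and neither pair of groups overlapped; without the library that stood apart the sum in knockout clones with JQ1 was 276.2 ± 28.97. In control clones with DMSO, CPE made up 46.3% ± 3.08 of this sum, SCG2 19.8% ± 8.72, CHGA 12.8% ± 0.482, SCG3 7.94% ± 1.94, CHGB 5.82% ± 1.25, PCSK1 4.29% ± 2.32, PCSK2 1.67% ± 0.749 and VGF 1.28% ± 0.480. In this order the neighbours SCG2 and CHGA, SCG3 and CHGB, CHGB and PCSK1, PCSK1 and PCSK2, and PCSK2 and VGF lay within their SDs of each other.

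In knockout clones with DMSO the same sum was 73.9% ± 15.0 CPE and 22.5% ± 17.0 SCG2, and CHGA made up 0.213% ± 0.141 of it. With JQ1, CPE made up 83.9% ± 6.64 (84.3% without the library that stood apart) in knockout clones and 40.9% ± 3.85 in control clones, and VGF 0.380% ± 0.252 (0.348% without that library) in knockout clones and 7.14% ± 2.57 in control clones. Transcripts of the granule genes in knockout cells were thus mostly those of CPE, with SCG2 where a clone kept it.

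**Figure D4:**
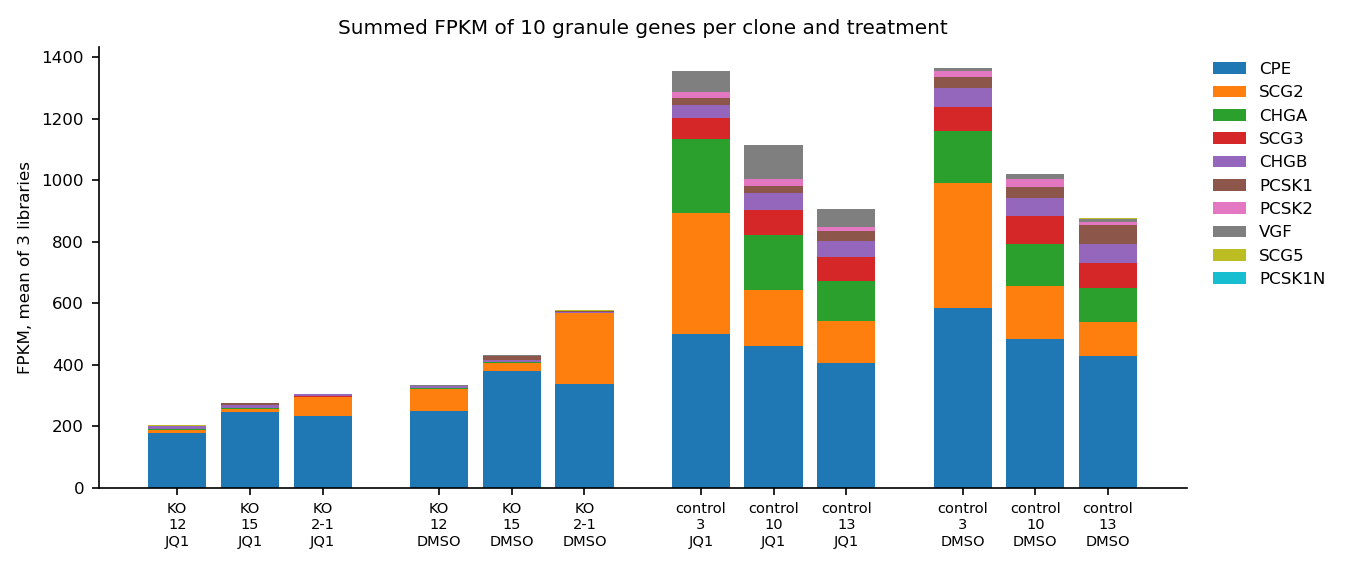
Summed FPKM of the 10 genes, stacked by gene, for each clone and treatment (bars are means of 3 libraries); knockout (KO) bars stand left of control bars and JQ1 left of DMSO. Knockout bars are shorter and mostly CPE, SCG2 varies between knockout clones, and VGF widens with JQ1 in control clones.

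Other genes of the regulated secretory pathway were counted from lists of 4 kinds, also chosen with earlier results of these data known. Beside the limma counts by genotype below stand the shares of all genes tested that differed in either direction at an adjusted p under 0.05. These were 12.5% with DMSO and 12% with JQ1. For the other counts with DMSO, DESeq2 called 3327 and edgeR 1839 of all 15819 genes. In edgeR 4393 genes had an unadjusted p under 0.05, and that number in limma is not given. Of 10 other convertases, carboxypeptidases and peptide-modifying enzymes tested (17 listed), 0 differed between genotypes with DMSO in limma, with 3 at an unadjusted p under 0.05, 0 in edgeR and 2 in DESeq2. FURIN, a convertase of the trans-Golgi network in most cells, had 312.1 ± 48.9 normalized counts in knockout clones and 320.6 ± 62.3 in control clones, and PAM, which amidates peptide C termini, had 6568 ± 1200 and 5008 ± 794.7 (adjusted p = 0.946 and 0.236). With JQ1, CPM, a membrane carboxypeptidase, was higher at 85.3 ± 114.7 in knockout clones (33.7 ± 25.6 without the library that stood apart) and 1.12 ± 0.772 in control clones, and had to be high in knockout clones to be tested. JQ1 lowered FURIN in knockout clones (log2 fold change -1.06, and -1.46 without that library) and in control clones (-0.82), and raised PCSK7, another convertase, in knockout clones (0.50, and 0.45 without that library) and in control clones (0.76).

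Of 18 granule membrane, biogenesis and docking genes tested (26 listed), 2 were lower in knockout clones with DMSO and 0 higher. Of all genes tested, 6.23% were lower and 12.5% differed in either direction, so 2 of 18 is near the share of all genes. PTPRN2, a granule membrane protein of the receptor phosphatase family, stood at 2.17 ± 2.91 in knockout clones and 84.2 ± 20.9 in control clones, where it had to be high to be tested, so its call is not support, and AP3B2, the neuronal AP-3 subunit, at 386.1 ± 181.0 and 1112 ± 142.3 (-1.66, SE 0.40, adjusted p = 0.0403). The list's median was -0.18. With JQ1, PTPRN2 and AP3B2 were again lower in knockout clones, and ICA1, an islet autoantigen of granule trafficking, was higher (adjusted p = 0.0418), though not without the library that stood apart (0.117). AP3B2 rose with JQ1 in knockout clones (796.5 ± 235.4 with JQ1, or 881.7 ± 365.7 without that library, and 386.1 ± 181.0 with DMSO) and in control clones (2193 ± 134.1 and 1112 ± 142.3).

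Of 52 peptide hormone genes, 8 were tested, and they moved in both directions. ADCYAP1, which encodes the neuropeptide PACAP, was lower at 0.254 ± 0.441 in knockout clones and 393.7 ± 179.3 in control clones with DMSO. NTS (neurotensin), at 14253 ± 15156 and 1029 ± 893.9, and CALCB, a calcitonin gene-related peptide, at 691.7 ± 934.6 and 2.60 ± 0.934, were higher in knockout clones (adjusted p = 0.0389 for NTS). PNOC (prepronociceptin) was at 72.8 ± 70.6 in knockout clones and 0 in control clones with DMSO, and had to be high in knockout clones to be tested. As ADCYAP1 and CALCB likewise had to be high in 1 genotype, the calls of these 3 are not support. In knockout clones 5 of the 8 were lower with JQ1 than with DMSO, PNOC, NMU, NTS and CALCB among them, and 4 without the library that stood apart, as NTS did not then pass (adjusted p = 0.0484 with it and 0.0869 without it). Of all genes tested, 25.7% were lower in that comparison with the library kept, and 4781 of 15819 without it.

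The 25 genes of the general secretory coats and the translocon, all tested, had 0 calls between genotypes with DMSO in limma. Of all genes tested, 12.5% differed. Of the 25, 5 had an unadjusted p under 0.05 in limma, the median was 0.11, and edgeR and DESeq2 gave 0 calls. With JQ1, SEC24B, a COPII cargo adaptor, was higher in knockout clones (2151 ± 147.0 and 1291 ± 105.8; log2 fold change 0.73, adjusted p = 0.0150; 0.80 and 0.0169 without the library that stood apart). JQ1 moved 15 of the 25 in knockout clones (7 higher, 8 lower) and 12 in control clones (5 higher, 7 lower), and without the library that stood apart 18 and 14. The counts with that library stand beside 49.6% of all genes in knockout clones and 47.9% in control clones. Without it, 8922 of 15819 genes passed in knockout clones and 8294 in control clones.

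**Figure D5:**
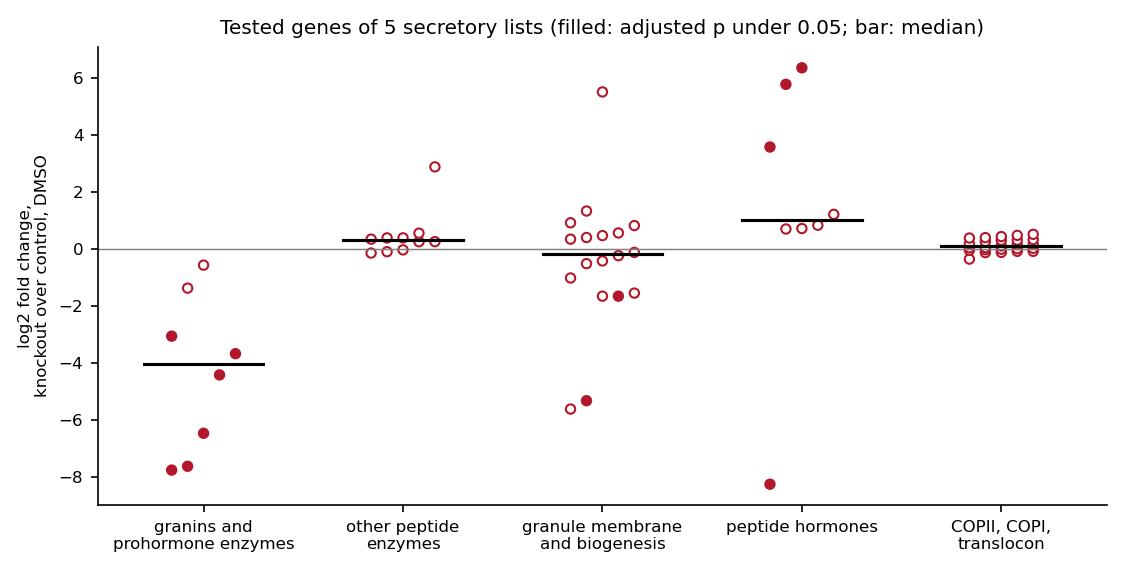
Log2 fold change of knockout over control clones with DMSO for the tested genes of 5 secretory lists (8, 10, 18, 8 and 25 genes from left to right); each point is 1 gene, filled points have an adjusted p under 0.05, and bars are medians. The granins and prohormone enzymes have a median of -4.05, and the other lists have medians from -0.18 to 1.02.

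The genes whose pattern over the 12 means of clone and treatment was most like each member were named by Pearson's r, among 12355 genes with a mean of at least 50 normalized counts. These points share clones and libraries and give a description only. NEUROD1 itself was second for SCG3 (r = 0.994), after UNC13A (0.998), and SCG3 had 126 genes above 0.95. As the target of the knockout, NEUROD1 was nearly absent from the knockout clones. A gene that fell strongly there therefore tends to have a high r with it. The first gene was CADM3 for CHGA (0.989), GNAO1 for CHGB (0.995), TMEM145 for PCSK2 (0.993), SLC22A5 for PCSK1 (0.976), STX1A for VGF (0.974), KLHL17 for CPE (0.974) and SMS for SCG2 (0.948). The second were DIRAS2, BRSK2, C14orf132, SEPT3, EPHA10, ASPHD1 and RP11-312J18.5 in the same order. With 0.95 as a limit, SCG2 had 0 genes as like it, CPE had 2, VGF 12 and PCSK1 17, while CHGA, SCG3, CHGB and PCSK2 had 104 to 152.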

How the data were processed

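Poly(A) RNA libraries of 6 H446 clones were analysed from 2 deposited tables. The tools named were cutadapt, STAR and RSEM and the build hg19, per the submitters' processing notes, with no versions listed. One deposited table holds the authors' DESeq2-normalized count signal (counts over a size factor), and whole reads were recovered from it (100% within 1e-06). The other holds the authors' deposited RSEM FPKM of 57820 genes. The members and all gene lists were chosen with earlier results of these data known.

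Tests used limma 3.58.1 in R 4.3.3 on log2(normalized count + 1), with clone means as replicates (3 against 3) and JQ1 minus DMSO differences per clone with 1 spread over 6 clones, two-sided, Benjamini-Hochberg over 15819 genes with at least 10 in at least 9 of 36 libraries. Tests within and between clones used single libraries. Labels give 3 biological replicates; nothing says they were separate cultures, so those p-values measure the spread between libraries. Reads per library had a median of 16302452. Named genes were all members, up to 4 called genes per list and comparison with a mean of at least 50 in 1 group, and the 2 genes most like each member. Alternatives were pseudocounts of 10 and 0.5, no filter, equal totals, TMM, FPKM (offset 0.1), edgeR 4.0.16 and DESeq2 1.42.0 on reads summed per clone and treatment, single libraries with and without a replicate block, the spread of 1 genotype alone, and omitting in turn every clone, replicate number or library. The tests were tried on simulated data. Promoters are from RefSeq on GRCh38.p14; no coordinates were converted from hg19. Figures used Python 3.11.15 and matplotlib 3.10.9.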

Additional observations from a re-analysis of the deposited data

Results flagged for a closer look

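The JQ1 response of knockout minus control clones passed the test of the difference for 5 members. It was -2.02 for VGF, -2.01 for SCG2, 1.01 for CHGA, 0.64 for SCG3 and -0.43 for CPE, on the log2 scale. In edgeR 0 of the 8 members passed.

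SCG5, which was read from the FPKM table only, had 8.94 FPKM in knockout clone 12 with JQ1, replicate 1, the library with lung and blood transcripts, against 0 in the other 2 libraries of that group and at most 0.780 in any control library. The highest value in the other 35 libraries was 1.92. The part of those transcripts in this value was not tested.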

How the results depend on the processing

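Alternatives were run on 13 counts of members called and on each member's fold change. Of 5144 fold changes under an alternative, 4895 kept their direction and their side of the threshold, 188 lost the call, 51 gained it and 10 changed sign. The sign changes were all of values that did not pass in the main test. SCG2 in control clone 3 had -0.045 with equal totals, -0.041 with FPKM and -0.0030 to 0.054 with libraries left out. CPE in control clone 10 had -0.035 with equal totals and -0.068 with FPKM. SCG3 in control clone 13 ranged from -0.14 to 0.0078, and had 0.0050 without replicate 1 of its JQ1 libraries. CHGB in knockout clone 12 ranged from -0.044 without replicate 3, which keeps the library that stood apart, to 0.76 without replicate 1. With only the library that stood apart left out, CHGB passed in clone 12 (0.74, limma adjusted p = 7.64e-11). PCSK2 with JQ1 in control clones ranged from -0.077 without control clone 13 to 0.31 without control clone 10. VGF in knockout clone 2-1 ranged from -0.10 to 0.56, without replicate 2 or 3 of its DMSO libraries. The cause was not tested.

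Members called moved to 0 for the difference in response in edgeR, to 2 between control clones with a pseudocount of 0.5, and to 1 for JQ1 in control clone 10 with no filter and with TMM. Leaving out a clone, a replicate number or a library gave 5 to 6 members for genotype with DMSO, 5 to 8 for genotype with JQ1 (5 without control clone 10), 1 to 4 for JQ1 in control clones (1 without control clone 3 or 13), 5 to 8 for JQ1 in knockout clones and 0 to 7 for the difference in response. It gave 7 to 8 between knockout clones, 2 to 5 between control clones, 4 to 5, 4 to 8 and 4 to 7 for JQ1 in knockout clones 12, 15 and 2-1, and 2 to 4, 1 to 4 and 2 to 4 in control clones 3, 10 and 13. The PCSK2 to SCG5 ratio differed by -8.02 to -6.91 and the PCSK1 to PCSK1N ratio by -2.88 to -1.42. An offset of 1 FPKM, chosen after seeing the data, gave -4.35 and -2.52.

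Counts over all genes ranged more: 1985 genes differed by genotype with DMSO, 3327 in DESeq2, 7856 with single libraries and 906, 1119 and 1216 without control clone 10, 13 and 3. With JQ1 they were 1893, 3054, 6803, 760, 1068 and 1095. For the difference in response they were 490 genes, 211 with FPKM, 12 in edgeR, 1046 in DESeq2, 4503 with single libraries and 1164 without the library that stood apart. JQ1 in control clones moved 7572 genes, and 4945 without control clone 10. Replicate numbers did not pair the libraries (correlation of same-numbered deviations -0.04 to 0.05). With the replicate block and single libraries, 8, 8, 3, 8 and 7 members were called in the 5 comparisons and 7465, 6503, 9563, 9875 and 3818 genes, and within clones the block gave 5, 7 and 7 members in knockout clones 12, 15 and 2-1 and 3, 2 and 2 in control clones 3, 10 and 13. Low counts limit PCSK2 and PCSK1N, and n = 3 clones limits every genotype result.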
